A study of Rattus norvegicus with 6 samples.

Results

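A set of 6 genes that mark neural stem and progenitor cells was followed in the injured rat spinal cord: Nes (ENSRNOG00000018681), Vim (ENSRNOG00000018087), Sox2 (ENSRNOG00000012199), Sox9 (ENSRNOG00000002607), Pax6 (ENSRNOG00000004410) and Notch1 (ENSRNOG00000019322). They were chosen by name, with earlier results of these data known. All 6 of the 6 were found among the 22526 genes of the deposited table, and all passed the filter on low values. The table gives Ensembl IDs without names, and the pairing of these IDs with symbols came with the definition of the set.

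The samples were spinal cords of 6 adult female Sprague-Dawley rats, taken 2 weeks after a spinal cord injury, with 1 library per rat. In 3 rats (DON) the implant was a decellularized optic nerve scaffold, which is optic nerve from which the cells have been removed so that the matrix remains. In the other 3 (A-DON) the scaffold carried Apt19S, an aptamer, that is, a short folded nucleic acid that binds a target. All 6 rats were therefore injured and implanted, with no uninjured and no unimplanted group. Which stretch of cord and scaffold was dissected is not given in the sources used here, and the markers of the labelled tissue could not be checked, because the table does not name its genes. Libraries held 24961512 to 31189687 reads. A-DON replicate 2 stood apart from its group: the chi-square per degree of freedom between libraries, over genes, was 21.9 for A-DON replicates 1 and 3. It was 172 and 148 for A-DON replicate 2 against them, and 271, 158 and 190 for A-DON replicate 2 against DON replicates 1 to 3. DON replicate 1 stood apart from DON replicates 2 and 3 (168 and 172, against 53.6 between those). Results are therefore given with and without these libraries where that changes them.

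In the adult cord, cells with stem cell properties lie around the central canal, and astrocytes regain some progenitor traits after injury. Nestin and vimentin, the products of Nes and Vim, are intermediate filaments that build the cytoskeleton of progenitors. Both are also made by reactive astrocytes and blood vessel cells, and Vim by fibroblasts and macrophages too. Sox2, Sox9 and Pax6 encode transcription factors that keep progenitors undifferentiated or set their fate, and Notch1 encodes a receptor through which neighbouring cells hold each other in the progenitor state. The series title speaks of neurogenesis in the lesion, and the comparison asks whether these transcripts differed when the scaffold carried the aptamer.

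Nes and Vim, the filament genes, had the largest differences. In normalized counts (reads scaled for library depth), the 3 A-DON values of Nes and of Vim lay below the 3 DON values. By the means of the log2 values they were 2.83-fold and 4.94-fold lower. The mean normalized counts of DON were 3.18 and 3.75 times those of A-DON. The 4 regulators had fold changes between 0.934 and 1.29 by the log2 means, and overlapping groups in normalized counts. None of the 6 genes passed an adjusted p of 0.05 (limma; 0 of 6), whereas 35.5% of all 19515 tested genes did. That background share rests on single libraries, as it was 0.0615% without A-DON replicate 3, 0.179% without A-DON replicate 1 and 0 with the replicate number as a block, and no member passed in those fits. At an unadjusted limma p under 0.05 there were 2 of 6, Nes and Vim, against 50% of all tested genes. That count was 0 of 6 without DON replicate 1 (against 43.4% of all tested genes), A-DON replicate 1 (35.0%) or A-DON replicate 3 (35.1%). It was 3 of 6, with Sox2 added, under scaling to equal library totals (49.8%) or without A-DON replicate 2 (55.5%). Limma's voom on reads gave 0 of 6 at the adjusted threshold against 38.9% of all genes. With only genes of a mean of 5 or more tested, Vim passed (1 of 6; limma adjusted p = 0.0498), against 38.8% of the genes then tested. In normalized counts, the 3 A-DON values lay wholly on one side of the 3 DON values in 2 of 6 genes and in 55.9% of all tested genes. By share of reads, Nes overlapped between the groups and Sox2 did not. The median log2 fold change of the 6 was -0.04, and that of all tested genes -0.02. In bulk tissue, fewer cells of a type and less RNA per cell cannot be told apart, and this holds for every value below.

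**Figure D1:**
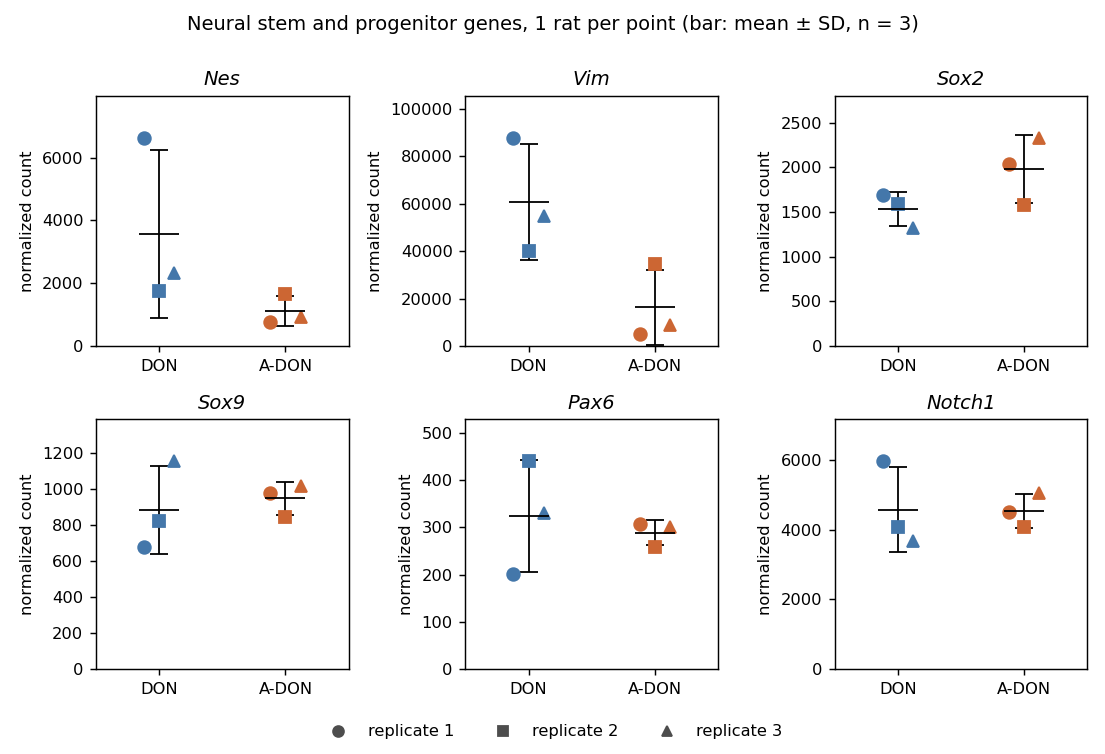
Normalized counts of each gene (vertical axis, from 0) in DON and A-DON; each point is 1 rat, with the mean and SD of 3 rats. Nes and Vim sit lower in A-DON, with A-DON replicate 2 closest to DON, and the other 4 genes overlap between groups.

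The abundant filament gene Vim showed the widest separation. Its normalized counts, that is, reads divided by a size factor for the depth of the library, were 87862, 39915 and 54830 in DON replicates 1 to 3 and 5211, 34571 and 8857 in A-DON replicates 1 to 3. All A-DON values were below all DON values, but A-DON replicate 2 was close to the lowest DON library, which was 1.15 times as high. A-DON replicates 1 and 3 stood well apart, since the lowest DON value was 4.51 times the higher of these 2. DON rats had a mean of 60869 ± 24537 and A-DON rats one of 16213 ± 16002 (SD, n = 3 each). The log2 fold change of Vim was -2.30 ± 0.72 (standard error), and its 95% interval ran from -4.07 to -0.54, which is 1.46-fold to 16.7-fold lower in A-DON. The adjusted limma p was 0.051, just above the threshold, and the exact two-sided permutation p was 0.1, the smallest that 3 rats against 3 can give.

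Vim made up 0.206 ± 0.0809% of the reads in DON and 0.0596 ± 0.0599% in A-DON (SD, n = 3 each). Ordered by reads, it was the 26th, 48th and 37th most abundant gene in DON replicates 1 to 3. In A-DON it stood 975th, 49th and 402nd. It thus kept its DON place in A-DON replicate 2 and stood far lower in the other A-DON libraries. Of the 49 genes with a mean normalized count at or above that of Vim, Vim included, 10 had a log2 fold change as low or lower. Among all tested genes 5.59% did, so a difference of this size was not rare in these data.

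Nes had 6639, 1747 and 2337 normalized counts in DON replicates 1 to 3 and 771, 1660 and 936 in A-DON replicates 1 to 3. The groups did not overlap in normalized counts, but the gap was narrow: DON replicate 2, the lowest of its group, was 1.05 times A-DON replicate 2. DON replicate 1 stood apart on the other side, at 3.25 times the mean of the other DON libraries. By share of reads the groups overlapped, with 0.00617% in A-DON replicate 2 and 0.00602% in DON replicate 2. DON rats had a mean of 3574 ± 2671 and A-DON rats one of 1123 ± 473 (SD, n = 3 each). The log2 fold change of Nes was -1.50 ± 0.55 (standard error), and its 95% interval ran from 1.11-fold to 7.21-fold lower. The adjusted limma p was 0.078 and the exact two-sided permutation p was 0.1. A log2 fold change this low or lower was found in 12.9% of all tested genes. Without DON replicate 1 the log2 fold change of Nes was -0.93 (limma adjusted p = 0.12), and the value with it was 1.62 times as large.

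**Figure D2:**
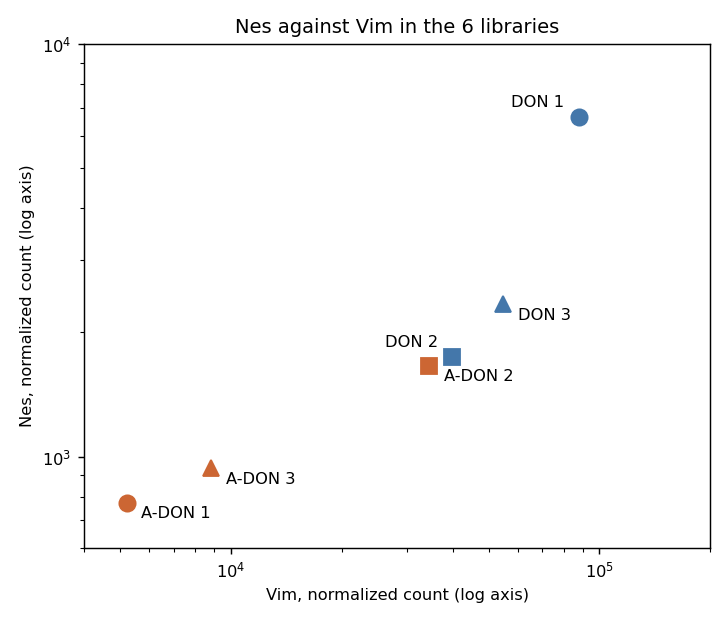
Normalized counts of Nes (vertical, log axis) against Vim (horizontal, log axis), with each point labelled by group and replicate. Both genes put the 6 libraries in the same order, with A-DON replicate 2 beside DON replicate 2.

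By normalized counts Nes and Vim ranked the 6 libraries identically, from DON replicate 1 through DON replicates 3 and 2 to A-DON replicates 2, 3 and 1. The same order was found in 896 of the other 19514 tested genes (4.59%). By share of reads the orders of Nes and Vim differed. A-DON replicate 2 was then above DON replicate 2 for Nes (0.00617% and 0.00602%) and below it for Vim (0.128% and 0.138%). The 2 genes differed in where their spread lay. Nes varied more within DON, with a log2 SD of 1.01 against 0.57 in A-DON, but this rested on DON replicate 1, without which the DON value was 0.30. Vim varied more within A-DON, with a log2 SD of 1.41 against 0.57 in DON. Both were among the more variable genes of the table: the log2 SD pooled over the groups was 1.07 for Vim and 0.82 for Nes, above that of 88.1% and 80.9% of the tested genes.

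Because Nes and Vim put the libraries in the same order by normalized counts, the 250 bases before their RefSeq start sites are shown. Those of Sox2, the regulator with the largest fold change, are given for comparison. All these sequences come from RefSeq in the GRCr8 build, while the submitters' notes name rn6 for their own data. All 3 lie on the plus strand: Nes at chr2:175736338-175736587, Vim at chr17:81577011-81577260 and Sox2 at chr2:119464881-119465130. Capitals mark GGGCGG (the GC box), CCAAT (the CCAAT box) and TATAAA (the TATA box), each on either strand.
Nes: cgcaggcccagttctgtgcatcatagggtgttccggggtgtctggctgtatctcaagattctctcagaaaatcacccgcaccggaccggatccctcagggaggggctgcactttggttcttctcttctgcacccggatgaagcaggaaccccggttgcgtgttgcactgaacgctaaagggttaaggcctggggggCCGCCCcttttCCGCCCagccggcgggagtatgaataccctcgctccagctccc
Vim: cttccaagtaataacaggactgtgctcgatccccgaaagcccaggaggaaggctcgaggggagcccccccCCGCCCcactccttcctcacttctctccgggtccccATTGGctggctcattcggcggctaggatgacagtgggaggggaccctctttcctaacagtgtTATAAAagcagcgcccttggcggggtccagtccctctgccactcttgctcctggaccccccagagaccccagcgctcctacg
Sox2: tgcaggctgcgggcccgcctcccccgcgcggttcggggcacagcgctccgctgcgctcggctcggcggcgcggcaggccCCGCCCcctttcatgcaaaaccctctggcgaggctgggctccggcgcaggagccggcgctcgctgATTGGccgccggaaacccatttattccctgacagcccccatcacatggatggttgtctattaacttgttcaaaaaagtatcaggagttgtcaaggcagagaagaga
The GC box was found 2 times in the Nes window and 1 time each in those of Vim and Sox2, and 30.5% of the 33469 rat promoter windows of this length hold it. The CCAAT box was in the Vim and Sox2 windows (34.0% of all windows) and the TATA box in the Vim window (12.9%). Thus the GC box was the 1 of the 3 motifs that the Nes and Vim windows shared, and the Sox2 window held it as well. GC content was 60.4% for Nes, 62.4% for Vim and 64.4% for Sox2, against a median of 51.2% over all windows. TGGGAA, the core letters bound by RBPJ, the DNA-binding partner of Notch receptors, was in none of these 3 windows, and 22.1% of all windows hold it. TGANTCA (AP-1) and ACAATG (a Sox motif) were in none of the 3 either, against 6.34% and 11.1% of all windows. Of the other members with a RefSeq window, Pax6 had TGGGAA 1 time and none of the other motifs, and Notch1 had the GC box 4 times and none of the others. Such matches describe letters only.

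Sox2, the transcription factor most closely tied to the neural stem cell state, was higher in 2 of the 3 A-DON libraries than in any DON library. It had 1689, 1588 and 1317 normalized counts in DON replicates 1 to 3 and 2043, 1582 and 2333 in A-DON replicates 1 to 3. In normalized counts A-DON replicate 2 lay inside the DON range, so the groups overlapped. By share of reads they did not: A-DON replicate 2, the lowest of A-DON, had 0.00587% and DON replicate 1, the highest of DON, 0.00568%. DON rats had a mean of 1532 ± 192 and A-DON rats one of 1986 ± 379 (SD, n = 3 each). The fold change was 1.29, with a 95% interval from 0.947 to 1.75, an adjusted limma p of 0.16 and an exact two-sided permutation p of 0.3. A fold change of 1 lies within that interval. Its upper end, 0.81 in log2, moved when single libraries were left out, from 0.73 without A-DON replicate 3 to 0.96 without DON replicate 1. With scaling to equal library totals the log2 fold change was 0.46, with a 95% interval from 0.039 to 0.87. That interval did not hold a fold change of 1, but the adjusted limma p was 0.081, above the threshold.

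Sox9, which drives glial fate and is abundant in astrocytes and ependymal cells, had 679, 820 and 1153 normalized counts in DON replicates 1 to 3. In A-DON replicates 1 to 3 it had 976, 845 and 1017, all within the DON range. The means were 884 ± 243 and 946 ± 90.2 (SD, n = 3 each). The fold change was 1.09, with a 95% interval from 0.761 to 1.57, an adjusted limma p of 0.65 and an exact two-sided permutation p of 0.6. Its direction rested on 1 library: without DON replicate 1 the log2 fold change was -0.04 in place of 0.13.

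Pax6, a patterning factor of ventral cord progenitors, rested on the fewest reads of the 6, 212 to 462 per library. It had 202, 440 and 330 normalized counts in DON replicates 1 to 3 and 308, 258 and 302 in A-DON replicates 1 to 3. The A-DON values lay inside the DON range, which was 2.18-fold wide. Counting error was small beside this range: the 95% Poisson intervals of the reads in DON replicates 1 to 3 were 184 to 243, 421 to 506 and 293 to 364. The means were 324 ± 119 and 289 ± 27.3 (SD, n = 3 each). The fold change was 0.934, with a 95% interval from 0.561 to 1.56, an adjusted limma p of 0.81 and an exact two-sided permutation p of 0.8. Its log2 fold change of -0.10 was -0.40 without DON replicate 1 and 0.16 without DON replicate 2, and the adjusted limma p was 0.18 and 0.68 in these fits.

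Notch1, the receptor of the set, had the smallest difference. It had 5966, 4064 and 3680 normalized counts in DON replicates 1 to 3 and 4501, 4069 and 5043 in A-DON replicates 1 to 3. The A-DON values again lay inside the DON range. The means were 4570 ± 1224 and 4538 ± 488 (SD, n = 3 each), and the fold change was 1.01, with a 95% interval from 0.712 to 1.44. The adjusted limma p was 0.96 and the exact two-sided permutation p was 0.9. The log2 fold change of 0.02 had no stable sign: it was -0.05, -0.12 and -0.06 without DON replicate 2, DON replicate 3 and A-DON replicate 3, and -0.0073 after quantile normalization. Without DON replicate 1 it was 0.23 (limma adjusted p = 0.26). Ligands, other receptors and targets of the Notch pathway are not reported, because the table does not name them.

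**Figure D3:**
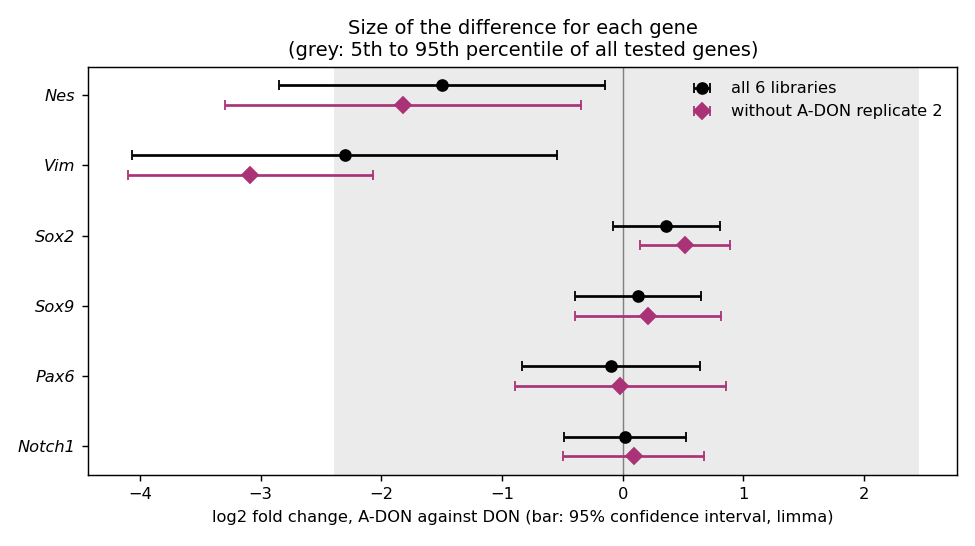
Log2 fold change of each gene between A-DON and DON (horizontal axis) with its 95% interval from limma, for all 6 libraries (black) and without A-DON replicate 2 (purple). The grey band spans the 5th to 95th percentile of all tested genes, -2.38 to 2.45; Vim lies near its lower edge and the regulators around 0.

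The results for Vim and Sox2 turned on A-DON replicate 2. Without this library Vim was 8.49-fold lower in A-DON and passed the threshold (log2 fold change -3.09, standard error 0.40, limma adjusted p = 0.0036). Sox2 was then 1.43-fold higher and passed as well (log2 fold change 0.52, standard error 0.15, limma adjusted p = 0.036). Nes was 3.53-fold lower and stayed just short of the threshold (log2 fold change -1.82, limma adjusted p = 0.051). In that fit 2 of 6 genes passed, against 47.6% of all tested genes. Sox9, Pax6 and Notch1 had adjusted limma p-values of 0.51, 0.97 and 0.77 in it. On the linear scale, with 0 at the DON mean and 1 at the mean of A-DON replicates 1 and 3, A-DON replicate 2 sat at 0.70 for Nes, 0.49 for Vim and 0.08 for Sox2. On the log2 scale the places were 0.47, 0.24 and 0.10. The high place for Nes rested on DON replicate 1: with that library left out of the DON mean, the linear places were 0.32, 0.32 and 0.17 for Nes, Vim and Sox2, and the log2 places 0.23, 0.16 and 0.22. This alternative was chosen after seeing the data.

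**Figure D4:**
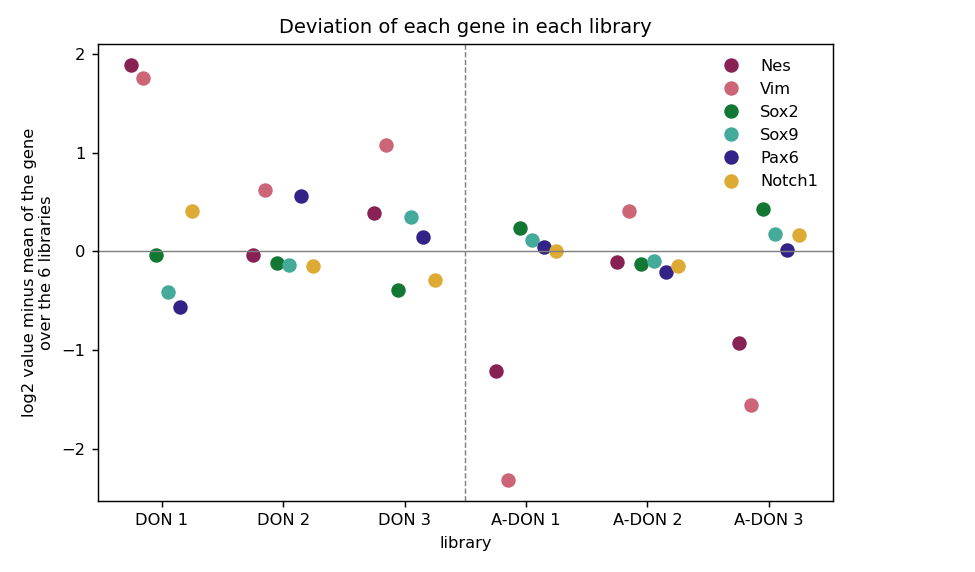
Log2 value of each gene minus its mean over the 6 libraries (vertical axis) in each library (horizontal axis), with 1 colour per gene. Nes and Vim are lowest in A-DON replicates 1 and 3 and highest in DON replicate 1, and the regulators vary over a narrower range.

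Within A-DON, replicate 2 had the highest value of Nes and Vim and the lowest value of Sox2, Sox9, Pax6 and Notch1. It was thus at an extreme of its group in 6 of 6 genes, as it was in 83.1% of all tested genes. Within DON, replicate 1 had the highest value of Nes, Vim, Sox2 and Notch1 and the lowest of Sox9 and Pax6. The log2 SDs of Sox9, Pax6 and Notch1 were 0.14, 0.14 and 0.15 in A-DON and 0.39, 0.57 and 0.37 in DON. Without DON replicate 1 those in DON were 0.35, 0.29 and 0.10, so that the order for Notch1 was the opposite. A smaller log2 SD in A-DON than in DON was found in 4 of 6 genes, Nes included, and in 48.9% of all tested genes. Without DON replicate 1 Nes had the opposite order as well, with 0.30 in DON and 0.57 in A-DON. With 3 rats per group the difference in spread was not tested.

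Ratios between 2 of the genes within a library show whether they differed by unlike amounts between the groups, since the scaling of the library cancels. Of the 15 pairs, 6 had A-DON and DON ratios that did not overlap, against 53.0% of all 190407855 pairs of tested genes, so the count is not particular to these genes. Each of the 6 set Nes or Vim against Sox2, Sox9 or Notch1. The exact two-sided permutation p was 0.1 for these 6, the smallest possible, and 0.25 after adjustment over the 15 pairs. The widest shift was that of Vim to Sox2: its log2 ratio averaged 5.24 ± 0.54 in DON and 2.57 ± 1.65 in A-DON (SD, n = 3 each). Nes to Sox2 had a log2 ratio of 0.98 ± 0.93 in DON and -0.88 ± 0.83 in A-DON (SD, n = 3 each). A-DON replicates 1 and 3 had Nes to Sox2 ratios well below every DON library, and A-DON replicate 2 lay just below the lowest of them. The ratio of Nes to Vim overlapped between groups, with log2 ratios of -4.26 ± 0.47 in DON and -3.46 ± 0.83 in A-DON (SD, n = 3 each; exact two-sided permutation p = 0.2). The 6 pairs among the 4 regulators overlapped in every case, and their log2 ratios shifted by -0.12 to 0.46.

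The log2 ratios among Sox9, Pax6 and Notch1 also varied little in A-DON, where each of these genes had a log2 SD of only 0.14 or 0.15. Those of Sox2 to Sox9, Pax6 and Notch1 likewise had SDs of 0.15, 0.17 and 0.14 in A-DON, against 0.57, 0.66 and 0.24 in DON. The spread of such ratios over all pairs of tested genes was not computed, and the difference in spread was not tested. The log2 ratio of Sox9 to Pax6 had an SD of 0.05 in A-DON and of 0.51 in DON, and that of Sox9 to Notch1 an SD of 0.05 in A-DON and 0.73 in DON. The log2 ratio of Pax6 to Notch1 had an SD of 0.10 in A-DON and 0.90 in DON. In DON the ratios among Sox9, Pax6 and Notch1 were spread by replicate 1, which had the lowest ratio to Notch1 for both other genes. Replicate 2 added to the spread, as it had the lowest ratio of Sox9 to Pax6. The log2 ratios of Pax6 to Notch1 were -4.88, -3.20 and -3.47 in DON replicates 1 to 3.

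**Figure D5:**
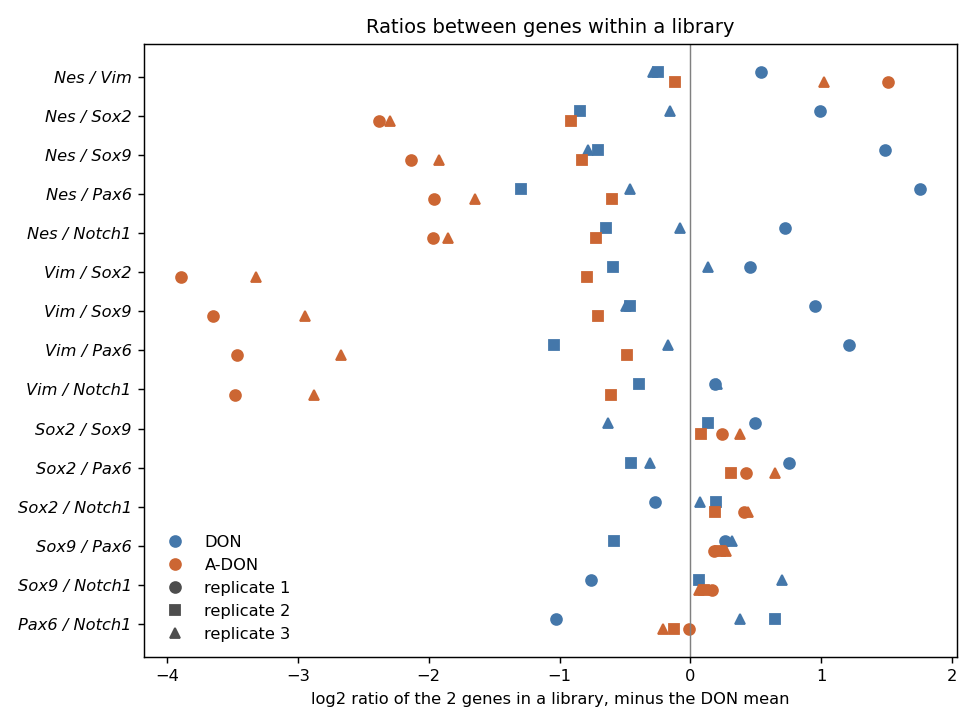
Log2 ratio of the first to the second named gene in each library, minus the DON mean of that ratio (horizontal axis), for the 15 pairs. Ratios with Nes or Vim over a regulator lie lowest in A-DON replicates 1 and 3, and ratios among Sox9, Pax6 and Notch1 are tight in A-DON.

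The table was also searched for the genes whose log2 values followed each member most closely over the 6 libraries, by Pearson's r, among 14700 other genes that averaged 50 normalized counts or more. Many genes followed Vim: 1715 (11.7%) had an r of at least 0.95 to it, and 473 (3.22%) to Nes. Only 99 (0.673%) did so for Sox2, 35 for Notch1, 25 for Pax6 and 16 for Sox9. The closest to Nes was ENSRNOG00000013743 (r = 0.9995), with 4657 ± 876 normalized counts in DON and 3500 ± 407 in A-DON (SD, n = 3 each). The closest to Vim was ENSRNOG00000049771 (r = 0.9994), with 176 ± 39.2 in DON and 71.7 ± 47.8 in A-DON (SD, n = 3 each). The closest to Sox2 was ENSRNOG00000021012 (r = 0.995), with 1591 ± 168 in DON and 1899 ± 274 in A-DON (SD, n = 3 each). ENSRNOG00000017299 was the closest to Notch1 (r = 0.992), with 2515 ± 423 in DON and 2498 ± 191 in A-DON (SD, n = 3 each). Its log2 fold change was 0.0009, so it hardly differed between the groups. None of these 4 genes passed the threshold, with adjusted limma p-values of 0.11, 0.060, 0.23 and 0.997. With 6 libraries in 2 groups and so many genes, a high r is a description of these libraries and carries no test.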

How the data were processed

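Per the labels' protocols, stranded mRNA libraries were made from 6 spinal cords (3 DON, 3 A-DON) and run on an Illumina NovaSeq. STAR 2.5.3a, StringTie 1.3.1c, FastQC 0.11.2 and the build rn6 appear in the submitters' processing notes, with no roles. What counted reads per gene, with which strand setting and annotation, is not given in the sources used here. Log2 values (0 to 19.8) are what the authors deposited. Undoing the log2 and subtracting 1 gave whole multiples of 1 step per library (100% of values, tolerance 0.05 reads), and the inverse steps, 0.927 to 1.05, equalled median-of-ratios size factors, so the deposited values are log2(reads / size factor + 1). Totals of these recovered reads give the depth; intervals on reads cover counting error only.

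The groups were compared with limma 3.58.1 in R 4.3.3 (statmod 1.5.0; group only, intensity trend, robust moderation) on the log2 values of genes with at least 1 normalized count in at least 3 libraries, with Benjamini-Hochberg adjustment over all of them and a threshold of 0.05. The script was tested on simulated data. Every fold change is one of log2(value + 1). Single values and ratios were tested by exact two-sided permutation. P-values rest on the spread between rats, which the series' design describes as separate animals. The sample titles number the rats 1 to 3 in each group, and the sources used here do not say whether equal numbers mean pairs. No 2 libraries were copies of each other. Alternatives were other scalings, filters, pseudocount and moderation, voom on the recovered reads, a replicate block and leaving out each library. Python 3.11.15, numpy 2.4.6, pandas 2.3.3 and scipy 1.17.1 were used.

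The members and lists were chosen with earlier results of these data known. All 6 members are named, with the genes of highest r to a member, 2 with a lower and 2 with a higher mean log2 value in A-DON. Lists of Notch pathway, progenitor, new neuron and cell type marker genes were drawn up, but 0 of the 22526 IDs were found in the reference gene table, so no list was tested. Promoter sequences were matched by symbol (5 of 6 members).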

Additional observations from a re-analysis of the deposited data

How the results depend on the processing

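Under the 9 settings that kept all 6 libraries, Nes, Vim, Sox2, Sox9 and Pax6 kept their direction, and Notch1 had -0.0073 after quantile normalization. No member passed the threshold in 8 of these settings. With a filter on a mean of at least 5 normalized counts 1 member passed, Vim (log2 fold change -2.304, limma adjusted p = 0.0498), where fewer genes were tested. Adjusted limma p-values ran from 0.067 to 0.16 for Nes, 0.0498 to 0.12 for Vim and 0.081 to 0.27 for Sox2. The count of genes past the threshold (6930; 3698 higher, 3232 lower) kept within 1.5 times in all 9 but the replicate block. Scaling to equal library totals gave 4360 higher and 2422 lower, which put 64.3% of the called genes higher in place of 53.4%.

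A fit with a replicate block left 2 residual degrees of freedom and called 0 genes, 0 higher and 0 lower (limma; 7601 at an unadjusted p under 0.05), and 0 members. Deviations from the group means had an r of -0.17, -0.24 and -0.08 between rats of equal number. Between rats of unequal number r ran from -0.06 to 0.22. With 3 libraries per group the deviations within a group depend on each other, so these values cannot decide whether the rats were paired.

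When single libraries were left out, between 12 (A-DON replicate 3 out) and 9286 genes (A-DON replicate 2 out) passed, with 11 to 4431 of them higher and 1 to 4855 lower, and 0 to 2 members passed. The log2 fold change ran from -1.89 to -0.93 for Nes, -3.09 to -1.72 for Vim, 0.24 to 0.52 for Sox2, -0.044 to 0.34 for Sox9, -0.40 to 0.16 for Pax6 and -0.12 to 0.23 for Notch1. The between-group shift in log2 ratio ran from -0.079 to 0.48 for Sox2 to Sox9, -0.065 to 0.39 for Sox9 to Pax6, -0.27 to 0.46 for Sox9 to Notch1 and -0.63 to 0.21 for Pax6 to Notch1; the other 11 pairs kept their direction. The cause of these changes was not tested. The planned edgeR and DESeq2 fits were not run, because the deposited unit is log2, and the planned lists gave no value for want of gene names. The linear place of A-DON replicate 2 without DON replicate 1, an alternative chosen after seeing the data, was 0.32 for Nes, 0.32 for Vim and 0.17 for Sox2.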
